A study of Rattus norvegicus with 10 samples.

Results

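The unfolded protein response and the folding machinery of the endoplasmic reticulum (ER) were followed in rat pancreatic β-cells after silencing of the zinc finger repressor Scrt1. The gene group was defined by function and had 42 members: the chaperones, lectins and oxidoreductases that fold secretory proteins, the 3 stress sensors with their transcription factors and targets, and the machinery of ER-associated degradation. All 42 were found among 23918 genes with values, and all 42 were among the 12941 genes that had enough reads to be tested. The β-cells came from adult Sprague-Dawley rats, were sorted by FACS on their autofluorescence, and were plated before transfection. The siScrt1 group (libraries A to E) received a pool of 4 siRNAs against Scrt1 with Lipofectamine RNAiMAX, and the siCtrl group (libraries 1 to 5) received a negative control siRNA in the same way. RNA was taken 48 h later from both groups, for which the sorting method, the culture and the transfection reagent are described alike. Whether the libraries of a group came from separate rats or cultures is not stated, so p-values measure the spread between these libraries only.

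β-cells make very large amounts of proinsulin, which enters the ER lumen, acquires disulfide bonds and folds there with the help of chaperones. When unfolded protein accumulates, the ER membrane sensors ATF6, IRE1 (encoded by Ern1) and PERK (Eif2ak3) raise chaperone and degradation capacity through ATF6, XBP1 and ATF4, while PERK phosphorylates eIF2 and lowers translation. Prolonged activity of the PERK branch induces CHOP (Ddit3), a factor known for its part in β-cell loss under ER stress.

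Library depth was between 11901342 and 17444034 recovered reads, that is, reads computed back from the scaled estimated counts. The targeted gene was lower in every siScrt1 library. Scrt1 measured 14.6, 11.7, 14.0, 18.2 and 11.9 CPM (reads relative to the library total) in siCtrl 1 to 5 and 5.55, 4.24, 4.28, 2.24 and 1.57 CPM in siScrt1 A to E. The groups did not overlap (log2 ratio -2.06, SE 0.308, adjusted p = 0.00618 in limma; exact permutation p = 0.00794, two-sided, which is the smallest value 5 against 5 allows). Of all genes tested, 136 changed with an adjusted p under 0.05, which is 1.05%. As to cell type, 11 of 12 β-cell markers were found, and their summed level was 106220 to 169364 CPM in siCtrl and 107646 to 154116 CPM in siScrt1. The 8 α-cell markers summed to 795 to 1178 CPM in siCtrl and 702 to 1063 CPM in siScrt1. Of 17 acinar markers 14 had a mean under 0.1 CPM, with Prss2, Prss3, Clps and Cela3b at 0, and the sum, 83.8 to 102 CPM in siCtrl and 86.8 to 101 CPM in siScrt1, was nearly all Bhlha15 (89.6 CPM).

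Levels of the members are given as TPM (abundance relative to transcript length and library total), which the authors had scaled between libraries, and they span more than 2 orders of magnitude. Some ER chaperones, lectins and disulfide enzymes held the top of the list, and the stress-induced Atf3, Derl3 and Trib3 the bottom. The classes were not separate: in siCtrl the transcription factors Atf4 (335 TPM) and Xbp1 (201 TPM) stood above the chaperone Sdf2l1 (33.1 TPM). The chaperone Hspa5 (BiP, the main HSP70 of the ER and the partner that keeps the sensors inactive) had the highest mean, 1103 ± 170.3 TPM in siCtrl and 1039 ± 154 TPM in siScrt1 (SD, n = 5 each). It was followed by the oxidase Ero1b, which recharges protein disulfide isomerases and is abundant in islets, with 814 ± 70.3 TPM in siCtrl (SD, n = 5), and by the lectin chaperone Calr (648 ± 69.3), the isomerase Pdia3 (647 ± 64.4) and the HSP90 of the ER, Hsp90b1 (621 ± 88.1). The means of Calr, Pdia3 and Hsp90b1 lay closer together than the spread between libraries. At the other end stood the stress-induced factor Atf3 with 4.85 ± 2.58 TPM and the derlin Derl3 with 9.39 ± 4.38 TPM in siCtrl (SD, n = 5), followed by the pseudokinase Trib3 with 13.9 ± 2.08 TPM. The sensors themselves were of modest level, with 44.5 ± 1.92 TPM for Atf6, 34.3 ± 4.25 TPM for Ern1 and 19.9 ± 2.63 TPM for Eif2ak3 in siCtrl (SD, n = 5). All 42 genes together took 2.08, 2.37, 1.85, 1.96 and 1.82% of the reads in siCtrl 1 to 5 and 2.00, 2.01, 1.80, 1.97 and 1.74% in siScrt1 A to E, so the groups overlapped.

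**Figure D1:**
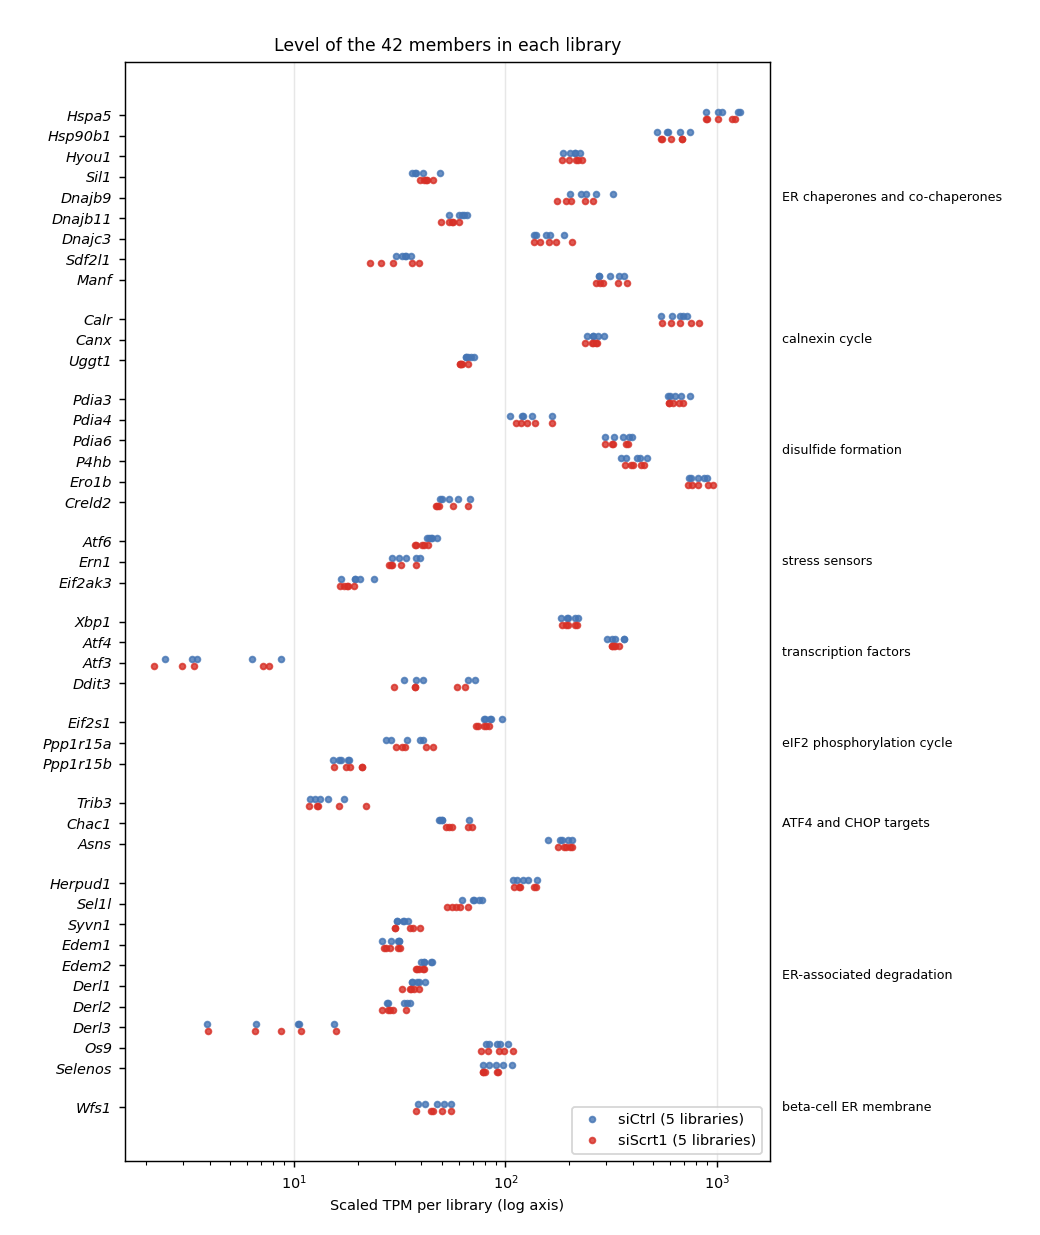
Level of each of the 42 genes in scaled TPM (log axis) in the 5 siCtrl (blue) and 5 siScrt1 (red) libraries, ordered by role. Blue and red points lie over each other for every gene, from Hspa5 at about 1103 TPM down to Atf3 at 4.85 TPM (siCtrl means), and the points of Atf3, Derl3 and Ddit3 are the most spread.

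Many of these genes are known to share short promoter elements through which ATF6, XBP1 and ATF4 act, and the sequences below show the matches found. The group itself was defined by function, and most of the genes searched held no match. RefSeq promoters (assembly GRCr8, 250 bases before to 50 bases after the annotated start) were held for 34 of the 42 genes. The ER stress response element (ERSE, searched as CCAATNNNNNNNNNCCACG on both strands) was found in 9 of the 34 genes (26.5%) against 0.0657% of all 33469 promoters of the same length. The 8 shown here are Calr, Creld2, Derl3, Dnajc3, Ero1b, Hsp90b1, Hspa5 and Xbp1. The windows that follow hold the match with 8 bases on either side, 5′ to 3′ on the strand of the gene, and capitals mark the fixed letters of the motif. In Ero1b, Calr, Creld2, Derl3 and the second match of Hsp90b1 the motif reads on the opposite strand.
Hspa5, chr3:38452965-38452999, + strand: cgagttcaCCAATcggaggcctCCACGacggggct
Xbp1, chr14:84604550-84604584, + strand: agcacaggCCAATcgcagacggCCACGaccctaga
Hsp90b1, chr7:23012443-23012477, - strand: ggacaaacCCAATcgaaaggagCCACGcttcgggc
Hsp90b1, chr7:23012339-23012373, - strand: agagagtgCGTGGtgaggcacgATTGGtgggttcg
Dnajc3, chr15:102432526-102432560, + strand: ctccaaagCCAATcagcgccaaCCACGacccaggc
Calr, chr19:40213127-40213161, + strand: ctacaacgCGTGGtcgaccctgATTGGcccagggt
Ero1b, chr17:92941450-92941484, + strand: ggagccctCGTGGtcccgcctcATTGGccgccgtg
Creld2, chr7:121789231-121789265, + strand: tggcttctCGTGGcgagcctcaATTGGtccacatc
Derl3, chr20:12766593-12766627, - strand: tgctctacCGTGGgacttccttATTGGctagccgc

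The compact form of the element, ERSE-II (searched as ATTGGNCCACG on both strands), was found in 3 of the 34 genes (8.82%) against 0.0508% of all promoters. These were Dnajb11 and Hyou1, which assist BiP, and Herpud1, an ER membrane protein of the degradation machinery. Neither ERSE nor ERSE-II was found in 22 of the 34 genes. The windows again carry 8 flanking bases, with the fixed letters in capitals, and both matches of Hyou1 read on the opposite strand.
Dnajb11, chr11:91672792-91672818, - strand: aggcggcgATTGGcCCACGcctggctg
Herpud1, chr19:10614813-10614839, - strand: gggcgctgATTGGgCCACGttgggcac
Hyou1, chr8:53602686-53602712, + strand: aaccgtgaCGTGGgCCAATccgcagcc
Hyou1, chr8:53602786-53602812, + strand: gtcttctaCGTGGcCCAATggggacgt

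Elements known to be read by ATF4 dimers and by XBP1 were searched in the same way. The amino acid response element (CARE, searched as TGATGCAA on both strands) was found in 3 of the 34 genes (8.82%) against 0.795% of all promoters: Chac1, a glutathione-degrading enzyme, Ppp1r15b, the constitutive regulatory subunit of the eIF2 phosphatase, and Herpud1. The unfolded protein response element (UPRE, searched as TGACGTGG on both strands) was found in Hyou1 only (2.94% of the 34 genes) against 0.595% of all promoters, and there it overlaps the first ERSE-II match. A match is a description of the letters. Capitals in the CARE windows mark the whole match.
Chac1, chr3:126795956-126795979, + strand: ctccgccgTTGCATCActcctgct
Ppp1r15b, chr13:47129814-47129837, + strand: ggtccggcTGATGCAActtgccgc
Herpud1, chr19:10614876-10614899, - strand: acggcgggTTGCATCAgcccgcac

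The promoter of Hspa5 is given over its 250 bases before the start, since this gene leads the group in level and its ERSE lies 43 bases upstream of the start. Besides the ERSE, in capitals, it holds further CCAAT boxes, 4 in all on either strand.
Hspa5, chr3:38452766-38453015, + strand: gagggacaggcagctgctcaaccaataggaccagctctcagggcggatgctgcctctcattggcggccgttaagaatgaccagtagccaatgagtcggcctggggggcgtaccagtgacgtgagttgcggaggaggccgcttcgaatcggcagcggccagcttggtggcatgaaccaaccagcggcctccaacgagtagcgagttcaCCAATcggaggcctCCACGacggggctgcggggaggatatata

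**Figure D2:**
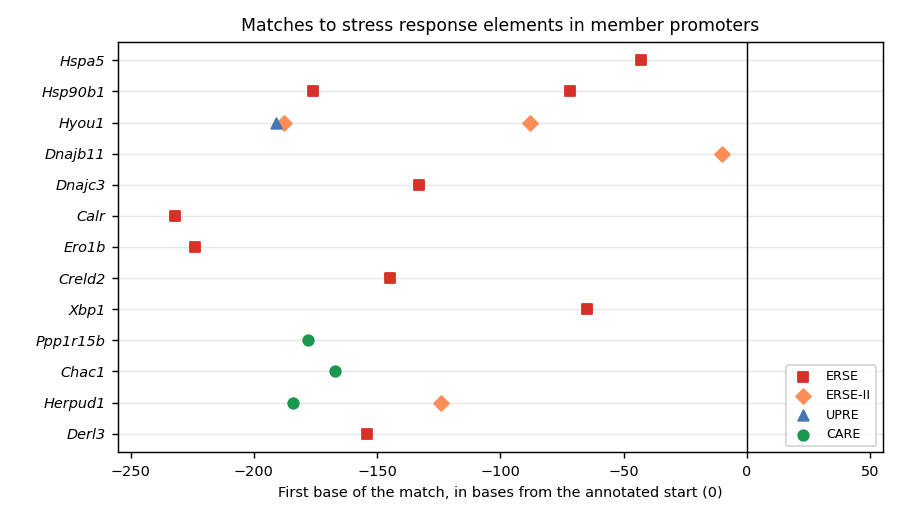
Position of the first base of each ERSE, ERSE-II, UPRE and CARE match in the promoters of 13 genes, in bases from the annotated start at 0. The match of Hspa5 lies 43 bases and that of Xbp1 65 bases upstream, and the matches of Calr and Ero1b lie more than 200 bases upstream.

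The comparison of siScrt1 with siCtrl asked whether silencing Scrt1 moved this machinery. None of the 42 genes passed the test: 0 had a limma adjusted p under 0.05, against 1.05% of all genes tested, and limma-voom also called 0. An unadjusted p under 0.05 was reached by 2 of the 42, Sel1l and Atf6, both lower in siScrt1, where 11.1% of all genes reached it in either direction and 5.75% with a lower level. The fitted log2 ratios ran from -0.28 (Sel1l) to 0.17 (Chac1) with a median of -0.04, beside a median of 0.00 over all genes. They were negative for 29 of the 42 genes, against 49.0% of all genes. With any single library left out this count ran from 22 (without siCtrl 2) to 35 (without siScrt1 B). The genes vary together, so their signs are not separate observations. In 0 of the 42 genes were the groups free of overlap in CPM, against 2.96% of all genes. For 38 of the 42 the 95% interval of the log2 ratio lay within 0.5 of 0 on either side, and for all 42 it lay within 1. The 4 with wider intervals were Dnajb9, Atf3, Ddit3 and Derl3. In bulk libraries fewer cells of one type and less RNA per cell cannot be told apart, so these values hold for the sorted fraction as a whole.

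**Figure D3:**
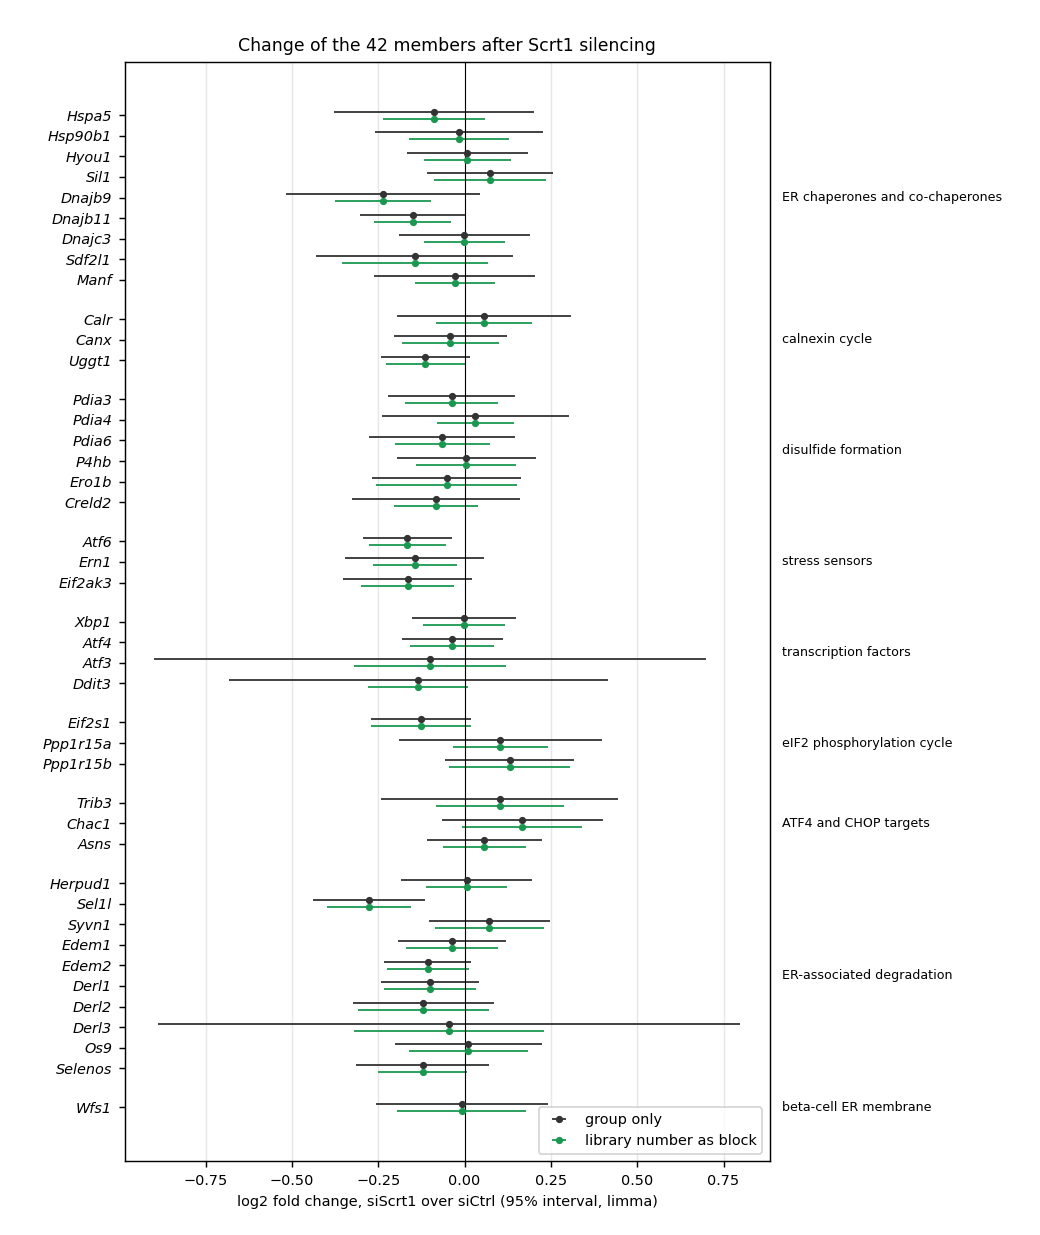
log2 ratio of each gene, siScrt1 over siCtrl, with its 95% interval from limma, with group as the only term (black) and with the library number as a block (green). Black intervals cross 0 for all genes but Sel1l and Atf6, and green intervals are narrower for most genes, with 42 of 42 inside 0.5 on either side of 0.

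The table deposited by the authors numbers the libraries 1 to 5 in each group. Same-numbered libraries deviated together, least clearly those numbered 2, so each contrast was also fitted with this number as a block. With the block 1 of the 42 genes was called, Sel1l, against 2.0% of all genes. An unadjusted p under 0.05 was then reached by 6 genes, Dnajb11, Dnajb9, Sel1l, Eif2ak3, Ern1 and Atf6, all lower in siScrt1, where 16.1% of all genes reached it in either direction and 7.94% with a lower level. Within numbers, 10 of the 42 genes were lower in siScrt1 in all 5 pairs, against 9.01% of all genes, and 0 were higher in all 5, against 8.01% of all genes.

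Among the stress sensors all 3 had negative values, with a median log2 ratio of -0.16, and each was lower in siScrt1 in 5 of 5 numbers, but none passed the test across all genes. Atf6, the sensor that is cut in the Golgi to release a transcription factor, measured 47.5, 45.1, 42.5, 44.2 and 43.3 TPM in siCtrl 1 to 5 and 42.9, 40.2, 37.3, 41.3 and 37.6 TPM in siScrt1 A to E. Only siScrt1 A reached into the siCtrl range, just above siCtrl 3. The log2 ratio was -0.17 (SE 0.0593, adjusted p = 0.288 in limma and 0.141 with the block). Ern1, the sensor that splices Xbp1 mRNA, had a log2 ratio of -0.14 (adjusted p = 0.609 in limma and 0.230 with the block). Eif2ak3, the eIF2 kinase PERK, had a log2 ratio of -0.16 (adjusted p = 0.510 in limma and 0.216 with the block).

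ER-associated degradation returns misfolded proteins to the cytosol, and its 10 genes had a median log2 ratio of -0.07. Sel1l, the adaptor that holds the HRD1 ubiquitin ligase complex together, measured 74.9, 77.7, 62.2, 71.0 and 70.0 TPM in siCtrl 1 to 5. In siScrt1 A to E it measured 66.7, 60.7, 53.2, 58.5 and 56.1 TPM. Library siScrt1 A alone exceeded the lowest siCtrl library, number 3, and within numbers Sel1l was lower in 5 of 5. The log2 ratio was -0.28 (SE 0.0750, 95% interval -0.44 to -0.11, adjusted p = 0.126 in limma). With the block the adjusted p was 0.0330, and over the other settings and left-out libraries it ran up to 0.405. The ligase itself, Syvn1 (HRD1), had a log2 ratio of 0.07 (adjusted p = 0.790 in limma). Herpud1, which brings the ligase and the derlins together, measured 141, 128, 108, 122 and 114 TPM in siCtrl 1 to 5 and 139, 137, 115, 117 and 110.1 TPM in siScrt1 A to E. The groups covered the same range, at a log2 ratio of 0.01 (SE 0.0876, adjusted p = 0.988 in limma). The other members, the mannose-trimming Edem1 and Edem2, the derlins Derl1 and Derl2, the lectin Os9 and the selenoprotein Selenos, had log2 ratios from -0.12 to 0.01.

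The ER chaperones and co-chaperones, 9 genes, had a median log2 ratio of -0.03. Hspa5 measured 1289, 1262, 1016, 1058 and 888 TPM in siCtrl 1 to 5 and 1215, 1181, 896, 1011 and 891 TPM in siScrt1 A to E. In both groups the libraries numbered 1 and 2 stood above the other three, and the groups overlapped. The log2 ratio was -0.09 (SE 0.134, adjusted p = 0.853 in limma), with a 95% interval of -0.38 to 0.20 that narrowed to -0.24 to 0.06 with the block. Dnajb11 (ERdj3), a J-domain partner of BiP, measured 63.4, 65.8, 60.01, 62.6 and 53.8 TPM in siCtrl 1 to 5 and 56.4, 60.1, 54.0, 55.7 and 49.8 TPM in siScrt1 A to E. It was lower in siScrt1 at each number although the groups overlapped, at a log2 ratio of -0.15 (SE 0.0701, adjusted p = 0.454 in limma and 0.179 with the block). The related co-chaperone Dnajb9 (ERdj4), an XBP1 target, had the most negative value of the class, a log2 ratio of -0.24 (adjusted p = 0.539 in limma and 0.0954 with the block). The remaining chaperones Hsp90b1, Hyou1, Sil1, Dnajc3, Sdf2l1 and Manf had log2 ratios from -0.14 to 0.07.

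In the calnexin cycle, which retains glycoproteins until they are folded, Calr measured 719.7, 691, 671, 612 and 546 TPM in siCtrl 1 to 5 and 751, 819, 671, 608 and 549 TPM in siScrt1 A to E. The groups overlapped, and both dropped towards the libraries numbered 4 and 5. Its log2 ratio was 0.06 (SE 0.116, adjusted p = 0.899 in limma). Uggt1, the enzyme that marks incompletely folded glycoproteins for another round, measured 71.3, 68.5, 65.0, 64.9 and 66.8 TPM in siCtrl 1 to 5 and 66.5, 62.1, 60.7, 61.5 and 61.1 TPM in siScrt1 A to E. Only siScrt1 A lay inside the siCtrl range, and the log2 ratio was -0.11 (SE 0.0594, adjusted p = 0.512 in limma). The membrane-bound lectin Canx had a log2 ratio of -0.04.

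Disulfide formation, the step that gives proinsulin its bonds, had a median log2 ratio of -0.04 over 6 genes. Ero1b measured 868, 898, 739, 814 and 751 TPM in siCtrl 1 to 5 and 903, 765, 953, 811 and 726 TPM in siScrt1 A to E. No number was highest in both groups, and the ranges overlapped. The log2 ratio of its scaled counts was -0.05 (SE 0.1002, adjusted p = 0.892 in limma) and turned positive, 0.03, when TPM was tested instead. Ero1b has 2 transcripts in the table, and the minor one held between 0.989 and 13.4% of the gene's reads depending on the library. Creld2, a secreted factor induced by ER stress, measured 67.7, 59.5, 49.2, 54.2 and 49.9 TPM in siCtrl 1 to 5 and 66.8, 56.6, 47.4, 48.5 and 46.9 TPM in siScrt1 A to E. The libraries numbered 1 were highest in both groups, and the log2 ratio was -0.08 (SE 0.113, adjusted p = 0.833 in limma). The isomerases Pdia3, Pdia4, Pdia6 and P4hb had log2 ratios from -0.06 to 0.03.

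Of the transcription factors, Atf4, whose mRNA is translated when eIF2 is phosphorylated, had the highest level. It measured 329, 365, 362, 302 and 318 TPM in siCtrl 1 to 5 and 326, 343, 331, 319 and 317 TPM in siScrt1 A to E, and the siScrt1 libraries lay inside the siCtrl range. The log2 ratio was -0.04 (SE 0.0679, adjusted p = 0.891 in limma). Xbp1, the effector of IRE1, had a log2 ratio of 0.00 (SE 0.0695, adjusted p = 0.996 in limma). The table holds 1 transcript of Xbp1, so the spliced form could not be told from the unspliced one.

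Ddit3 (CHOP) and Atf3, both induced late in the response, varied between libraries far more than between groups. Ddit3 measured 71.9, 66.3, 33.2, 40.7 and 37.7 TPM in siCtrl 1 to 5 and 58.8, 64.0, 29.6, 37.3 and 37.2 TPM in siScrt1 A to E. In each group the libraries numbered 1 and 2 stood apart above the other three, and number 3 was lowest. The log2 ratio was -0.13 (SE 0.254, adjusted p = 0.890 in limma), and with the block its 95% interval went from -0.68 to 0.41 to the narrower -0.28 to 0.01. Atf3 measured 6.32, 8.66, 2.47, 3.30 and 3.50 TPM in siCtrl 1 to 5 and 7.15, 7.63, 2.18, 3.35 and 2.95 TPM in siScrt1 A to E. The order was again numbers 2 and 1 first and number 3 last in both groups, and the log2 ratio was -0.10 (SE 0.369, adjusted p = 0.948 in limma).

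No gene of the translation branch was called. Eif2s1, the α subunit of eIF2 that PERK phosphorylates, measured 80.1, 95.9, 79.2, 85.9 and 84.5 TPM in siCtrl 1 to 5 and 81.0, 74.2, 72.9, 83.5 and 79.4 TPM in siScrt1 A to E. The groups overlapped, at a log2 ratio of -0.13 (SE 0.0672, adjusted p = 0.527 in limma). Phosphorylation itself is not read by RNA levels. The phosphatase subunits Ppp1r15a (GADD34) and Ppp1r15b had log2 ratios of 0.10 and 0.13. Among the ATF4 and CHOP targets, Asns, the asparagine synthetase, measured 184, 197, 207, 159 and 182 TPM in siCtrl 1 to 5 and 194, 207, 201, 177 and 189 TPM in siScrt1 A to E. The siScrt1 libraries lay inside the siCtrl range, at a log2 ratio of 0.06 (SE 0.0766, adjusted p = 0.829 in limma). Chac1 measured 50.1, 48.4, 67.4, 49.2 and 50.2 TPM in siCtrl 1 to 5 and 56.2, 69.5, 66.3, 54.3 and 52.1 TPM in siScrt1 A to E. Apart from siCtrl 3, which stood with the highest siScrt1 libraries, the siCtrl libraries lay below all siScrt1 libraries. The log2 ratio was 0.17 (SE 0.108, adjusted p = 0.612 in limma). Trib3, the remaining target, had a log2 ratio of 0.10.

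Wfs1, an ER membrane protein whose loss causes Wolfram syndrome with β-cell failure, measured 38.8, 41.5, 55.1, 51.4 and 47.6 TPM in siCtrl 1 to 5 and 37.97, 55.4, 50.4, 44.6 and 45.5 TPM in siScrt1 A to E. The ranges coincided (log2 ratio -0.01, SE 0.115, adjusted p = 0.989 in limma). Unlike Hspa5, Wfs1 was lowest in the libraries numbered 1 of both groups. Derl3, a derlin of secretory cells induced by ER stress, measured 15.4, 10.5, 3.90, 10.5 and 6.63 TPM in siCtrl 1 to 5 and 15.8, 10.8, 3.92, 8.69 and 6.56 TPM in siScrt1 A to E. Number 1 was highest and number 3 lowest in both groups, the ratio of the highest to the lowest library was 4.04, and the log2 ratio was -0.05 (SE 0.390, adjusted p = 0.979 in limma). Derl3 rested on few reads, from 28.7 to 109.7 per library.

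The pattern seen in Ddit3, Atf3, Derl3 and Hspa5 ran through most of the group. For each gene, the deviations of its log2 scaled counts from the group means were split into a portion shared by the same-numbered siCtrl and siScrt1 libraries and the remainder. Libraries without any tie would share 50% on average. The shared portion had a median of 89.0% over the 42 genes and of 62.7% over all genes tested. Over the 134 tested further genes of the same pathways, described below, its median was 64.5%, near that of all genes. The shared portion was above 75% in 30 of the 42 genes, against 31.0% of all genes. Between genes it ranged from 17.7% in Ero1b, 42.4% in Eif2s1 and 44.3% in Ppp1r15b up to 98.9% in Atf3, 99.1% in Ddit3 and 99.3% in Derl3. The portion depends on counting noise and thus on level, but among the 1734 genes whose mean level reached 100 CPM the median was 66.8%, beside 88.6% for the 28 of the 42 genes that reached this level. No test was made of this difference, since the genes vary together and are not replicates.

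**Figure D4:**
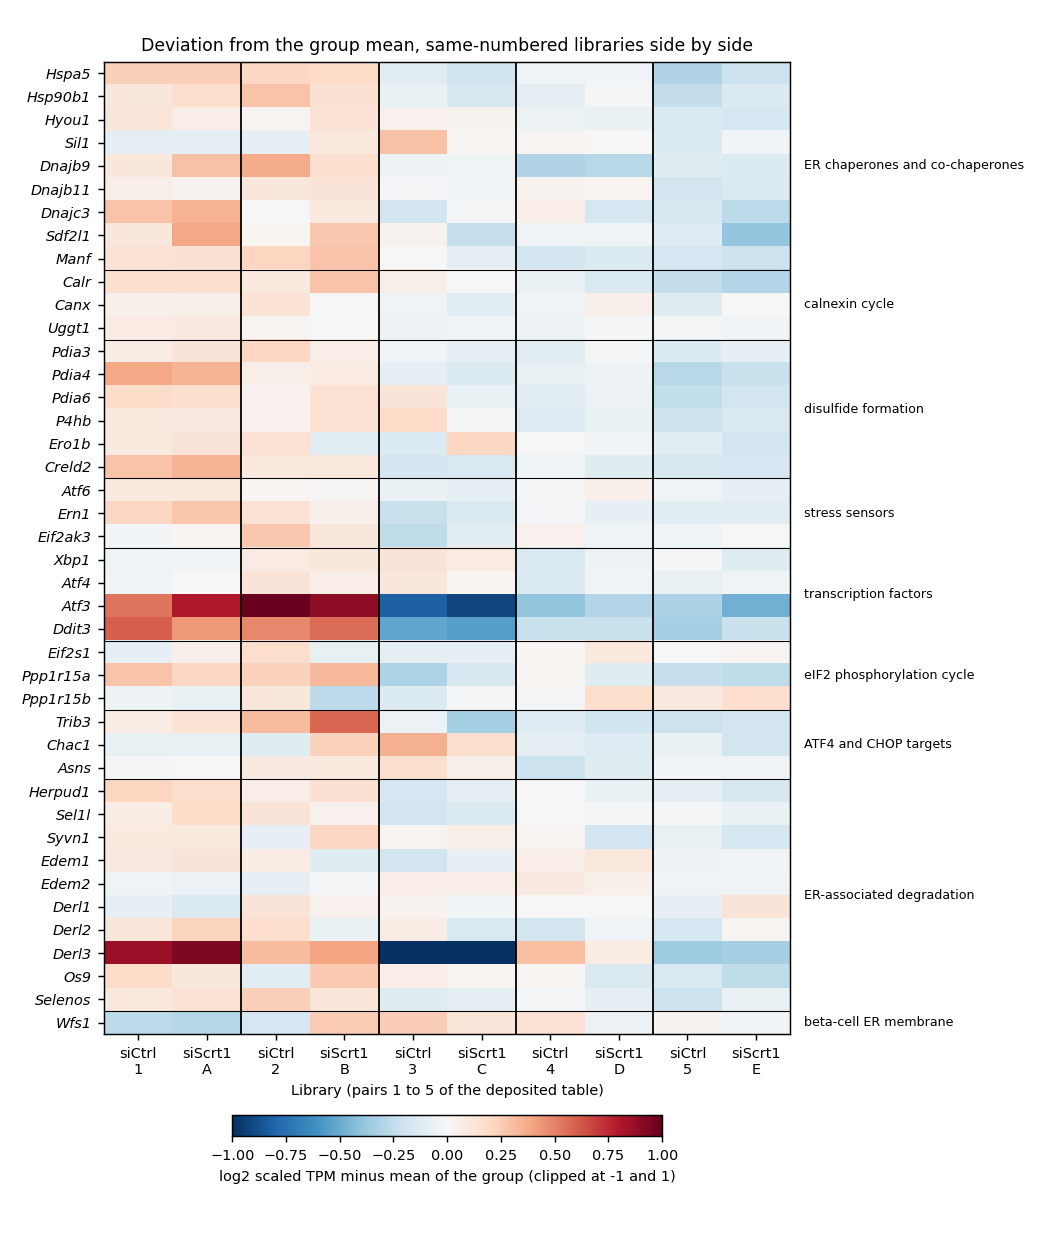
Deviation of each gene from the mean of its group on the log2 scale of scaled TPM (colour, clipped at -1 and 1), with same-numbered siCtrl and siScrt1 libraries side by side. Most genes are red (above the mean) in the columns of numbers 1 and 2 and blue (below it) in those of number 5, while Wfs1, Chac1, Sil1 and Asns differ, and Atf3, Ddit3 and Derl3 have the deepest colours.

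The libraries with high values were the same in both groups for many of the genes. One number was highest in both groups for 18 of the 42 genes, against 30.1% of all genes, and in 12 of these it was number 1. The highest library was number 1 or 2 in both groups for 31 of the 42, against 22.3% of all genes. Of the 11 exceptions, Sil1, P4hb, Xbp1, Chac1, Asns and Wfs1 were highest in number 3 among the siCtrl libraries and in number 2 among the siScrt1 libraries, while Ero1b, Eif2s1, Ppp1r15b, Edem2 and Derl1 followed other orders. The shared portion fixes how the residual SD changes when the number enters the fit, so the following values restate it and add no separate evidence. With the number in the fit the residual SD fell in 39 of the 42 genes. Its median was 0.4698 of the value without the number, against 0.864 over all genes. The median SE of the log2 ratio fell accordingly from 0.0910 to 0.0617 over the 42 genes.

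**Figure D5:**
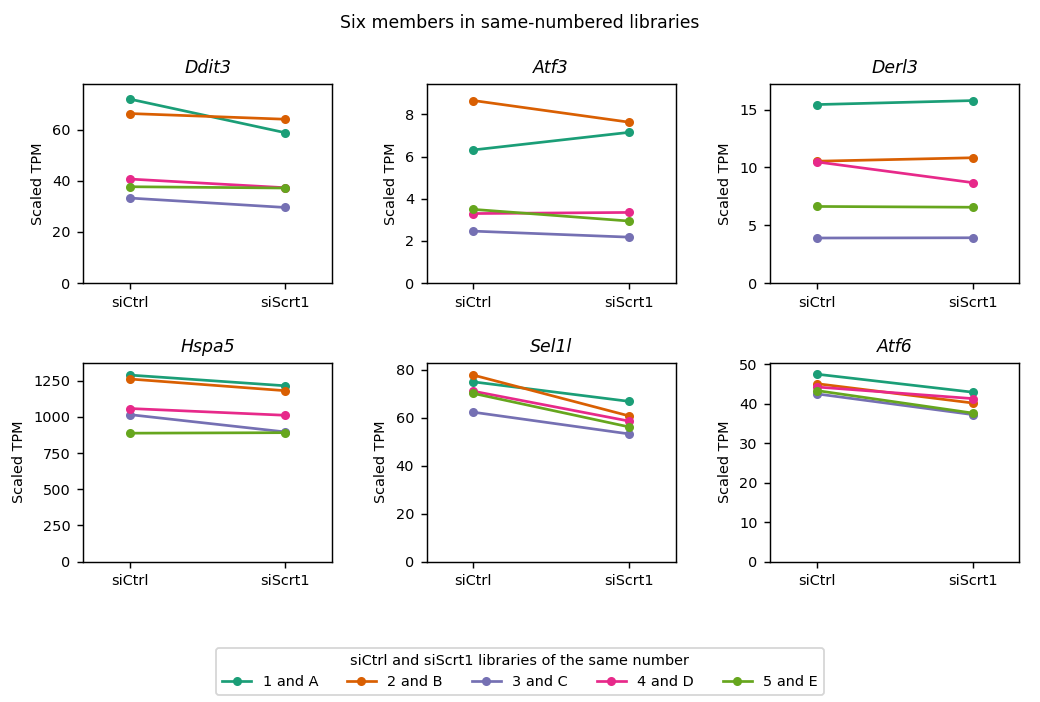
Scaled TPM of Ddit3, Atf3, Derl3, Hspa5, Sel1l and Atf6, with lines joining the siCtrl and siScrt1 libraries of the same number. For Ddit3, Atf3, Derl3 and Hspa5 the lines of numbers 1 and 2 are the upper ones in both groups, and for Sel1l and Atf6 all 5 lines slope down.

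Some other features of the libraries followed the number as well, and their part in the pattern was not tested. The summed δ- and PP-cell markers (5 genes) were 50.6, 18.7, 49.7, 35.4 and 83.7 CPM in siCtrl 1 to 5 and 56.2, 22.3, 43.0, 41.6 and 90.2 CPM in siScrt1 A to E, lowest in number 2 and highest in number 5 of both groups. The 8 mesenchymal markers were highest in number 4 of both groups, at 20.8 CPM for siCtrl 4 and 35.8 CPM for siScrt1 D. A set of 3 genes with AABR clone names made up 11.9% of siCtrl 1 and 13.9% of siScrt1 A by reads, against 3.35 to 8.26% in the other libraries. The insulin genes Ins1 and Ins2 held 9.38, 8.88, 14.97, 12.6 and 10.6% of the reads in siCtrl 1 to 5 and 9.38, 13.7, 12.4, 14.0 and 12.04% in siScrt1 A to E. For the insulin share no number was lowest or highest in both groups. It was lowest in siCtrl 2 and siScrt1 A, and highest in siCtrl 3 and siScrt1 D. Leaving out both libraries of one number at a time kept the median shared portion of the 42 genes between 86.4 and 92.1%.

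For the 9 genes counted above as holding an ERSE, of which 8 have their windows shown, the log2 ratios ran from -0.09 to 0.06 with a median of -0.04, beside a median of -0.04 for the 22 genes that had a promoter entry but neither ERSE nor ERSE-II. The median shared portion was 92.4% in the ERSE genes and 81.4% in those 22. Outside the group 26 further genes held an ERSE or ERSE-II, of which 13 could be tested and 0 were called, with a median shared portion of 73.7%. These medians were not compared by a test.

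At the level of single transcripts the 42 genes had 54 transcripts, 1 in 30 genes and 2 in 12. Of the 52 tested, 0 were called by limma, against 0.415% of all transcripts, and 2 had an unadjusted p under 0.05 (those of Sel1l and Atf6), against 9.32% of all transcripts. With the block 0 were called as well. Ddit3 and Atf3 were the stress factors with a sizeable second transcript, which held a mean of 20.5% and 27.9% of the reads of the gene, respectively.

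A list of 141 further genes of the same pathways was chosen by function, with earlier results of these data known. Its share of calls is therefore no test of the pathways. Of the 141, 134 were tested and 5 were called, against 1.05% of all genes. Of these 5, 3 were lower and 2 higher in siScrt1, where 0.68% and 0.371% of all genes were called lower and higher. None of the 30 other folding enzymes was called. The thioredoxin-like membrane protein Tmx4, which had the smallest p among them, measured 50.9, 61.7, 57.6, 49.0 and 54.2 TPM in siCtrl 1 to 5 and 45.9, 43.7, 45.9, 42.4 and 45.4 TPM in siScrt1 A to E. All siScrt1 libraries lay below all siCtrl libraries, but the adjusted p of its log2 ratio of -0.29 was 0.0742 (limma), and 0.0415 with the block. Among 32 other sensors, regulators and factors 1 was called, Parp16, an ER-anchored ADP-ribosyltransferase known to act on PERK and IRE1. Parp16 rose from 0.700, 0.649, 0.474, 0.321 and 0.489 TPM in siCtrl 1 to 5 to 1.75, 1.84, 1.67, 2.64 and 2.02 TPM in siScrt1 A to E. The groups were far apart but rested on 6 to 51 reads (log2 ratio 1.88, SE 0.259, adjusted p = 0.00475 in limma), and Parp16 was put on the list with this change known.

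In ER-associated degradation 2 of 36 further genes were called, both lower. Man1b1, the ER mannosidase that starts the trimming of misfolded glycoproteins, measured 68.1, 59.8, 62.3, 55.6 and 52.7 TPM in siCtrl 1 to 5 and 51.4, 44.5, 43.9, 37.9 and 37.3 TPM in siScrt1 A to E. Every siScrt1 library lay below every siCtrl library (log2 ratio -0.48, SE 0.0955, adjusted p = 0.0316 in limma and 0.00195 with the block). Rhbdd1, a rhomboid protease of the ER membrane, fell from 15.8 ± 0.812 to 11.8 ± 1.64 TPM (SD, n = 5 each), at a log2 ratio of -0.43 (SE 0.0916, adjusted p = 0.0449 in limma). Among 36 other ATF4 targets 2 were called. Slc6a9, a glycine transporter, rose from 7.81 ± 0.462 to 9.97 ± 0.461 TPM (SD, n = 5 each), a log2 ratio of 0.28 (adjusted p = 0.0450 in limma and 0.0628 with the block), while Gpt2, a mitochondrial alanine aminotransferase, fell from 12.98 ± 0.344 to 9.68 ± 1.23 TPM, a log2 ratio of -0.41 (adjusted p = 0.0409 in limma). With the block 7 of the 134 were called, against 2.0% of all genes in that fit, since Slc6a9 was lost and Tmx4, the ER chaperone Hspa13 and the folate enzyme Mthfd2 were gained. With any 1 library left out the count was 1 to 4, and Parp16 was called each time. Slc6a9 was called in none of these fits, Rhbdd1 and Gpt2 only without siScrt1 A, and Man1b1 only without siCtrl 5 or siScrt1 A. The limma adjusted p reached 0.106 for Man1b1, 0.142 for Rhbdd1, 0.144 for Slc6a9 and 0.132 for Gpt2. Over these fits the log2 ratio ran from -0.55 to -0.43 for Man1b1 and -0.50 to -0.37 for Rhbdd1. It ran from 0.26 to 0.30 for Slc6a9 and -0.47 to -0.37 for Gpt2. Why the count fell was not tested.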

How the data were processed

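RNA-seq of 10 libraries of FACS-sorted rat β-cells (5 siCtrl, 5 siScrt1; groups taken from the sample labels) was analysed. The authors quantified single-end reads against the Rnor6 transcriptome with kallisto, and the processing notes further name FastQC, Trimmomatic and sleuth (versions not given in the sources used here). The deposited values are signal values, not raw reads: an estimated count and a TPM per transcript, which the authors had brought to a common scale across libraries with sleuth, so that TPM sums ran from 821278 to 1153952. Of the rows, 31715 transcripts had values and 9363 had none and were not used. Low scaled counts were multiples of a step of 0.842 to 1.26 per library; division by it gave the recovered reads and CPM, and 48.8% of transcript values above 0 were then whole within 0.001. Reads that fit several transcripts had been shared by kallisto, so genes with near-identical copies are less certain.

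Scaled counts and TPM were summed per gene. Genes with the CPM of 10 reads at median depth in at least 5 libraries and 15 reads in all were tested as log2(scaled count + 0.5) with limma 3.58.1 (R 4.3.3, intensity trend, group as the only term), and p-values were adjusted over all genes by Benjamini and Hochberg, with a threshold of 0.05. Fold changes are on this scale and understate those of low genes. Transcripts needed 5 reads in 47% of libraries, and 17578 were tested. The fits were tested on simulated data. Since the values were scaled, no count model was used. The library number 1 to 5, given in each group by the deposited table, served as a block; the labels carry no shared number, and whether same-numbered libraries shared a preparation is not stated. Deviations of same-numbered libraries from the group means correlated at 0.351, 0.131, 0.231, 0.198 and 0.234 for numbers 1 to 5, so the block was treated as pairing. Number 2 was the exception: siScrt1 B correlated more with a siCtrl library of another number than with siCtrl 2. Results with the block are therefore less certain. Alternatives were other scalings, filters, pseudocounts, TPM values, limma-voom, the block, and left-out libraries; the shared portion by number was examined after seeing the data.

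Named with values in every library were, in each role, the gene of highest TPM and that of smallest p, and the 3 of largest spread; of the other pathway genes, those called or, if none in a list, that of smallest p. Others named were chosen after their values were seen. Members and lists were chosen with earlier results of these data known. Promoters came from RefSeq (GRCr8), with Python 3.11.15, pandas 2.3.3 and scipy 1.17.1; plots used matplotlib 3.10.9. A promoter match counted in the text is not reported here. No promoter was held for Atf3, Atf6, Derl1, Ern1, Manf, Os9, Pdia3 and Pdia6. Summed markers not given with the results were those of duct (188 to 267 CPM), endothelial (2.79 to 4.05), immune (2.77 to 5.16) and plasma cells (1.77 to 3.02).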

Additional observations from a re-analysis of the deposited data

Results flagged for a closer look

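Of 106 sets of 5 libraries looked at (gene by group, and marker list by group), 5 had a library far from the other four by Dixon's ratio of gap to range, about the number that a rate of 1 in 20 gives by chance. Uggt1 was 66.5 TPM in siScrt1 A and 60.7 to 62.1 TPM in the other siScrt1 libraries. Chac1 was 67.4 TPM in siCtrl 3 and 48.4 to 50.2 TPM in the other siCtrl libraries; without siCtrl 3 its log2 ratio was 0.26 (adjusted p = 0.252 in limma). The summed mesenchymal markers were 20.8 CPM in siCtrl 4, where the other siCtrl libraries had 4.01 to 7.09 CPM, and 35.8 CPM in siScrt1 D, where the other siScrt1 libraries had 4.93 to 9.33 CPM. Both libraries carry the number 4. The summed immune markers were 5.16 CPM in siScrt1 B and 3.28 to 3.78 CPM in the other siScrt1 libraries.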

How the results depend on the processing

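That 0 of the 42 genes were called held under other scalings, filters and pseudocounts, with TPM values, with limma-voom, without both libraries numbered 1 or 4, and without any single library; with the replicate block the count was 1 (Sel1l). Over all genes the count of 136 became 259 with the replicate block and 25 without both libraries numbered 4, and 62 to 133 without any single library, where siCtrl 4 and 5 and siScrt1 B, C, D and E each moved it by more than 1.5 times. The 5 other pathway genes called became 2 with no filter, 3 with 10 reads required in every library and 1 without both libraries numbered 4, and 1 to 4 without any single library; every library but siScrt1 A moved this count by more than 1.5 times. Scrt1 without both libraries numbered 4 had a log2 ratio of -1.82 (adjusted p = 0.0621 in limma, against 0.00325 to 0.0212 without any single library), with 4 libraries left per group. Signs of small changes turned: Ero1b to 0.0278 with log2(TPM + 1) and 0.0278 with log2(TPM + 0.1), and, without both libraries numbered 4, Wfs1 to 0.0419 and Derl3 to 0.0107. Without any single library the log2 ratio ran from -0.27 to 0.0103 for Ddit3, -0.32 to 0.22 for Derl3, -0.30 to 0.13 for Atf3, -0.0879 to 0.00246 for Ero1b, -0.0360 to 0.0580 for Herpud1, -0.0753 to 0.0651 for Wfs1 and -0.0159 to 0.13 for Calr. Apart from the calls named with the results, the pairing changed none among the genes given with values. At these depths Scrt1, Derl3, Atf3 and Parp16 rest on few reads. For genes that were not called, changes within the 95% intervals given are not excluded.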
